A study of Mus musculus with 12 samples.

Results

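The genes of MHC class II presentation were followed in a YTHDF2 RNA immunoprecipitation (RIP-seq) of CD11b+ myeloid cells sorted out of mouse tumors grown from the colon carcinoma line MC38. The 10 members, of 54446 genes counted, were given as a list of symbols that was drawn up with earlier results of these data known. Through the GENCODE annotation these symbols were matched to the Ensembl identifiers of the count files, and all 10 members were found. Of these, 9 are structural genes of the pathway (*H2-Aa*, *H2-Ab1*, *H2-Eb1*, *H2-DMa*, *H2-DMb1*, *H2-DMb2*, *H2-Oa*, *H2-Ob* and *Cd74*), and the other is *Ciita*, their transactivator. All 10 passed the filter on low counts in each of the 5 comparisons.

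The cells came from WT mice, which by the methods carried floxed *Ythdf2* and no Cre, were male and female and were 8 to 10 weeks old. Tumors were left unirradiated (Ctrl) or received 1 local dose of 20 Gy (IR), and cells were sorted 3 days later. Each condition had 3 pools of 5 mice, called technical replicates in the methods, and each pool gave an Input library, a measure of transcript abundance, and a library of the RNA recovered with an anti-YTHDF2 antibody (IP), 12 libraries in all. The sample records and the methods name different antibodies and different RNA selections, and a control antibody was not analysed here, so log2(IP/Input) is given as binding intensity relative to the other genes of a library pair and not as occupancy.

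MHC class II molecules are heterodimers of an α and a β chain that present peptides from endosomes to CD4+ T cells. *H2-Aa* and *H2-Ab1* encode the chains of I-A, and *H2-Eb1* the β chain of I-E. *Cd74* encodes the invariant chain, which occupies the groove and guides new dimers to endosomes, H2-DM exchanges the last invariant chain peptide for antigen, and H2-O restrains H2-DM. *Ciita* encodes a coactivator that does not bind DNA itself but docks on a protein complex assembled on the conserved X and Y boxes of class II promoters, and it is known as the switch that sets class II expression in dendritic cells, B cells and interferon-γ-treated macrophages. YTHDF2 is a reader of m6A, an RNA methylation, and promotes decay of the transcripts it holds.

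The 8 H2 genes lie in a single stretch of mouse chromosome 17 (mm10), from *H2-Oa* at 34092340 to the end of *H2-Eb1* at 34316674, whereas *Ciita* lies on chromosome 16 (10480059 to 10528418). To show the promoter elements through which *Ciita* acts, the 250 bases upstream of the RefSeq start site (GRCm38.p6) were searched on both strands for the Y box TGATTGG and for GCAAC, a stretch within the X box that was chosen after the sequences were seen. A promoter entry was found for 7 members, and none for *H2-Ab1*, *Cd74* and *Ciita*. TGATTGG was present in 6 of the 7, against 7.23% of 32851 mouse promoters, and GCAAC in 5, against 29.9%. GCAAC followed 15 to 30 bases later by TGATTGG, a spacing also set after the sequences were seen, occurred in the promoters of 4 members and in 0.149% of all promoters. The 52 bases around these pairs are given 5′ to 3′ on the strand of the gene, with GCAAC and TGATTGG in capitals. They lie upstream of the RefSeq start site, and no GENCODE exon of the same gene overlaps them except at the last bases of the *H2-Oa* stretch. Overlap with exons of other genes was not examined. A match describes the letters of the promoter and is no measurement of binding, and a missing match does not show that an X box is absent. *H2-DMb1* and *H2-DMb2*, for example, had TGATTGG but not the letters GCAAC.
H2-Aa, chr17:34287862-34287913, minus strand: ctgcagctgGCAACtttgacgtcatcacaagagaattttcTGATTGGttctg
H2-Eb1, chr17:34305766-34305817, plus strand: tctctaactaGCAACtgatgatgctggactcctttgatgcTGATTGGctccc
H2-Oa, chr17:34092294-34092345, plus strand: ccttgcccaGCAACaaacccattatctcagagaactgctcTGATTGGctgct
H2-Ob, chr17:34238806-34238857, plus strand: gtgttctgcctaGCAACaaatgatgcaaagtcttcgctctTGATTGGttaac

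The spacing between both elements was 26 bases in *H2-Aa*, 25 in *H2-Eb1*, 26 in *H2-Oa* and 23 in *H2-Ob*. These genes differ widely in the level measured in the Inputs, since *H2-Aa* was among the more abundant members and *H2-Ob* the least abundant. *Cd74* and *H2-Ab1*, which had no promoter entry, stood above them.

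Between 27852948 and 42382532 reads per library were counted on genes. The share of uniquely aligned reads that the counting assigned to no feature, which can include intronic reads, was 27.0% for Ctrl and 24.7% for IR among the Inputs, but 42.3% and 51.4% among the IPs, and pools of the IR IPs differed from each other by more than those of the other groups. Markers of the myeloid gate were abundant in every Input, with group means of 2466 and 2584 CPM (counts scaled to a common library total) for *Lyz2* and 943 and 1717 CPM for *Itgam* (Ctrl and IR). The summed level of 5 T cell genes stayed under 2 CPM in the Inputs, and *Krt19*, an epithelial keratin, was at 0 in all 12 libraries. The 4 epithelial genes summed to 4.54 to 6.77 CPM and 3 stromal genes to 6.03 to 11.9 CPM in the Inputs.

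Class II transcripts were a visible part of the Input libraries. The 9 structural genes took 0.547% ± 0.0051 (SD, n = 3) of all counts on genes in the Inputs of Ctrl and 0.750% ± 0.010 in those of IR, and *Ciita* took 0.0131% ± 0.00028 and 0.0156% ± 0.00012. In the IPs the structural share was smaller, 0.224% ± 0.0054 in Ctrl and 0.303% ± 0.0061 in IR, while the share of *Ciita* was larger, 0.0219% ± 0.0017 and 0.0252% ± 0.0013. The relation of *Ciita* to its targets therefore differed between the fractions within single libraries, where no scaling enters. *Ciita* made up 2.31, 2.36 and 2.37% of the counts of the 10 members in the Ctrl Inputs and 8.51, 8.40 and 9.81% in the Ctrl IPs. After IR it made up 2.08, 1.99 and 2.05% in the Inputs and 7.74, 7.25 and 8.08% in the IPs, so that the Input and IP pools did not overlap in either condition.

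Per kilobase of annotated exon, the Input levels fell into steps that followed the roles of the proteins. *Cd74* stood highest at 1979.8 ± 20.1 CPM per kilobase (RPKM; SD, n = 3) in Ctrl, followed by the classical chains *H2-Ab1* (323 ± 3.15 RPKM), *H2-Eb1* (180.4 ± 1.68 RPKM) and *H2-Aa* (164 ± 1.79 RPKM). The genes of the peptide editor H2-DM came next, with 42.2 ± 0.838 RPKM for *H2-DMb1*, 31.3 ± 0.214 RPKM for *H2-DMa* and 24.999 ± 0.360 RPKM for *H2-DMb2*. *Ciita* stood at 13.5 ± 0.271 RPKM, above *H2-Oa* (8.38 ± 0.895 RPKM) and *H2-Ob* (1.70 ± 0.230 RPKM), the genes of the H2-DM modulator. No neighbours in this order overlapped between pools in Ctrl, and the order was the same, again with no overlap, in the IR Inputs. It depends in part on the gene models. Per length of the transcript with the longest coding part, *H2-Aa* (551 ± 6.01 RPKM) stood above *H2-Eb1* (299.6 ± 2.79 RPKM), *H2-DMa* (65.2 ± 0.444 RPKM) above *H2-DMb1* (50.5 ± 1.004 RPKM), and *Ciita* (30.5 ± 0.611 RPKM) was not separated from *H2-DMb2* (30.7 ± 0.442 RPKM) in Ctrl. *H2-Ea-ps*, the pseudogene entry at the I-E α locus, had at most 1 count in any Input and at most 5 in any IP, and *H2-Eb2*, a further β chain gene, had an Input level of 3.41 ± 0.15 CPM (SD, n = 3) in Ctrl.

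**Figure D1:**
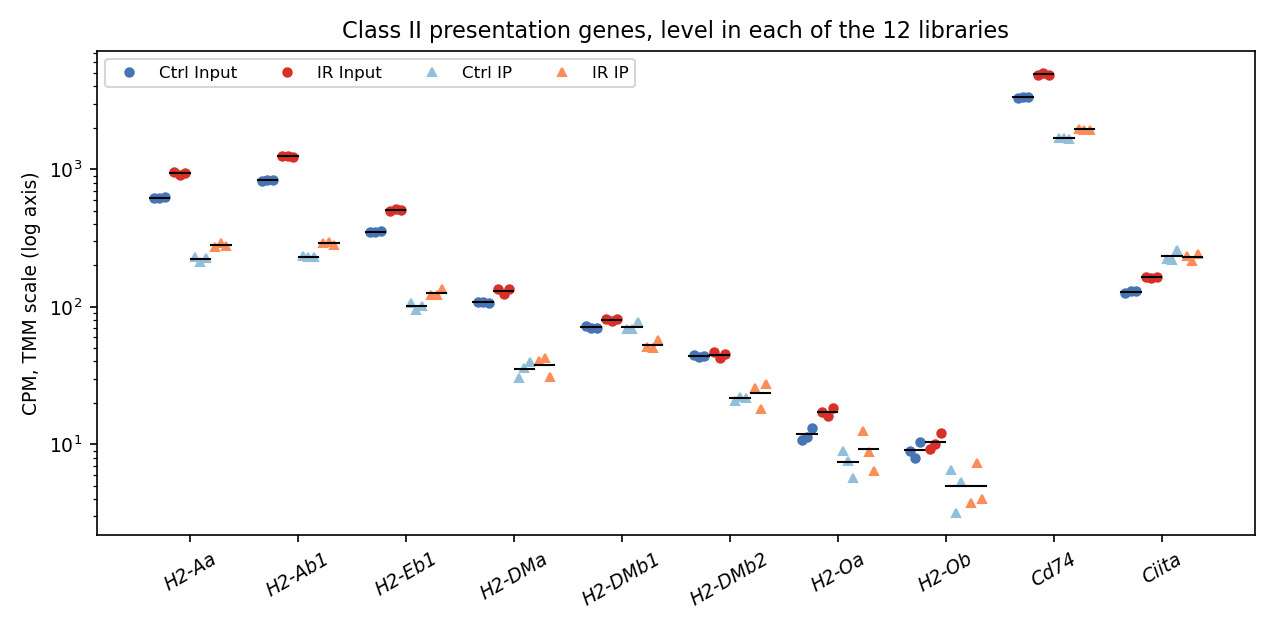
Level of each class II presentation gene in the 12 libraries, in CPM with TMM factors from all libraries together (log axis), with circles for Input, triangles for YTHDF2 IP, 1 symbol per pool and a black bar for the mean of 3 pools. In both conditions the IP symbols lie below the Input symbols for the structural genes other than *H2-DMb1* in Ctrl, and above them for *Ciita*.

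Which members were depleted or enriched with YTHDF2 was asked first in unirradiated tumors. In Ctrl, *Ciita* was higher in the IP than in the Input, whereas 8 of the 9 structural genes were lower and none was higher. Among all 17416 genes tested, 34.1% were called higher and 34.6% lower with edgeR's quasi-likelihood test at a Benjamini-Hochberg adjusted p under 0.05. The median log2 fold change of the structural genes was -0.94, against 0.018 over all genes tested. With 3 pools a group that the methods call technical replicates, these p-values measure the spread between pools only.

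The classical chains were the most depleted members in Ctrl, together with *H2-DMa*. *H2-Ab1* stood at 821, 836 and 835 CPM in the Input pools and at 235, 228 and 228 CPM in the IP pools. Its log2 fold change of -1.77 ± 0.036 SE corresponds to a 3.42-fold lower level in the IP (edgeR adjusted p = 3.10e-17) and lay at percentile 7.63 of the genes tested. The other β chain gene, *H2-Eb1*, had 348, 349.9 and 354 CPM in the Inputs and 106, 94.8 and 101 CPM in the IPs, a 3.30-fold lower level (log2 -1.72 ± 0.047 SE, edgeR adjusted p = 1.28e-15). *H2-Aa*, the α chain gene, went from 621, 615 and 629 CPM in the Inputs to 228, 211 and 227 CPM in the IPs and was 2.66-fold lower (log2 -1.41 ± 0.040 SE, edgeR adjusted p = 2.31e-15). For all 3 chains every IP pool lay below every Input pool. The α chain was less depleted than its partner, since the ratio of *H2-Aa* to *H2-Ab1* counts was 0.749 ± 0.0109 (SD, n = 3) in the Ctrl Inputs and 0.963 ± 0.0352 in the Ctrl IPs with no overlap between pools.

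*Cd74*, the most abundant member and a gene of chromosome 18, was less depleted than the chains it accompanies. It had 3291, 3359 and 3323 CPM in the Input pools and 1699.8, 1694 and 1654 CPM in the IP pools of Ctrl, a 1.87-fold lower level (log2 -0.91 ± 0.029 SE, edgeR adjusted p = 1.15e-14). The ratio of *Cd74* to *H2-Ab1* counts was 4.003 ± 0.0198 (SD, n = 3) in the Inputs and 7.30 ± 0.105 in the IPs, with no overlap between pools.

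The 5 genes of the peptide editors spread over a wide range in Ctrl. *H2-DMa*, the α chain of H2-DM, stood at 109, 108 and 107 CPM in the Inputs and 30.5, 36.0 and 39.6 CPM in the IPs and was 2.90-fold lower (edgeR adjusted p = 7.79e-12). *H2-DMb2*, a β chain gene of H2-DM, was 1.92-fold lower (log2 -0.94 ± 0.080 SE, edgeR adjusted p = 9.98e-09). *H2-DMb1*, the other β chain gene, had 72.5, 69.7 and 70.5 CPM in the Inputs and 69.3, 68.8 and 77.3 CPM in the IPs, and its pools overlapped. Its log2 fold change of 0.093 ± 0.062 SE did not pass the test (edgeR adjusted p = 0.195). The H2-O genes had the fewest reads of the members in the IPs, with 279, 241 and 153 counts per pool for *H2-Oa* and 202, 102 and 144 counts for *H2-Ob*. *H2-Oa* was lower with log2 -0.60 ± 0.17 SE (edgeR adjusted p = 0.00484) and *H2-Ob* with log2 -0.80 ± 0.22 SE (edgeR adjusted p = 0.00393), and their standard errors were the largest of the members. Without replicate 3, *H2-Oa* had log2 -0.34 and was no longer called (edgeR adjusted p = 0.123).

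*Ciita* moved the other way. It stood at 126, 130.3 and 131 CPM in the Input pools and 224, 217 and 257 CPM in the IP pools of Ctrl, with every IP pool above every Input pool. The transactivator was 1.90-fold higher in the IP (log2 0.92 ± 0.056 SE, edgeR adjusted p = 9.11e-11), at percentile 74.9 of the genes tested. With library size alone in place of TMM, the median of all genes in this comparison moved by -0.18 on the log2 scale. The values relative to that median were 0.91 and 0.90 for *Ciita* and -1.79 and -1.79 for *H2-Ab1* (TMM and library size), while the direction of *H2-DMb1* reversed.

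The same pattern was found after IR. All 9 structural genes were lower in the IP and *Ciita* was higher, where 30.4% of 18650 genes tested were called lower and 32.1% higher. The median log2 fold change of the structural genes was -1.28, against 0.10 over all genes tested. Comparisons within Ctrl and within IR share no library, so these values are from separate pools. With library size alone the median of all genes moved by 0.15 on the log2 scale, and the counts of members called were the same.

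In IR, *H2-Ab1* stood at 1240.0, 1255 and 1225 CPM in the Inputs and 290.3, 293 and 282 CPM in the IPs, 4.14-fold lower (log2 -2.05 ± 0.036 SE, edgeR adjusted p = 1.36e-11), at percentile 4.84 of the genes tested. *H2-Eb1* and *H2-Aa* followed with log2 fold changes of -1.95 ± 0.054 SE and -1.67 ± 0.042 SE (edgeR adjusted p = 2.11e-10 and 1.18e-10). The invariant chain *Cd74* had 4833, 5028 and 4869 CPM in the Inputs and 1969.8, 1933 and 1942 CPM in the IPs and was 2.43-fold lower (edgeR adjusted p = 3.49e-11). All pools of these 4 genes were again separated between the fractions, and the classical chains again lay below *Cd74*. Among the editors, *H2-DMa* was 3.35-fold lower and *H2-DMb2* 1.83-fold lower (edgeR adjusted p = 1.16e-07 and 0.000343). *H2-DMb1*, which had not passed the test in Ctrl, had 82.1, 79.0 and 81.2 CPM in the Inputs and 50.6, 50.3 and 57.1 CPM in the IPs and was 1.48-fold lower (log2 -0.56 ± 0.076 SE, edgeR adjusted p = 7.34e-05). *H2-Oa* and *H2-Ob* were lower with log2 -0.84 ± 0.22 SE and -1.005 ± 0.27 SE (edgeR adjusted p = 0.00672 and 0.00786). The call of *H2-Oa* was lost without replicate 2 (log2 -0.77, edgeR adjusted p = 0.0798) and without replicate 3 (log2 -0.50, edgeR adjusted p = 0.0924). The call of *H2-Ob* was lost without replicate 1 (log2 -0.85, edgeR adjusted p = 0.0511) and without replicate 3 (log2 -0.66, edgeR adjusted p = 0.133). *Ciita* had 166, 162 and 164 CPM in the Input pools and 234, 216 and 243 CPM in the IP pools and was 1.46-fold higher (log2 0.55 ± 0.055 SE, edgeR adjusted p = 7.11e-06), at percentile 62.4 of the genes tested.

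The distance between the transactivator and the genes it switches on was expressed per pool as log2(IP/Input) of *Ciita* minus the mean log2(IP/Input) of the 9 structural genes, with IP and Input of the same pool on the scale of all 12 libraries. It was 1.90, 1.93 and 2.15 in the Ctrl pools (mean 1.99 ± 0.14 SD, n = 3) and 1.86, 1.74 and 2.08 in the IR pools (mean 1.89 ± 0.17). The ranges of Ctrl and IR overlapped. This contrast carries no test because the members were chosen with earlier results of these data known. The difference between *Ciita* and the structural mean, unlike the level of either, is hardly touched by scaling because each library's scale factor cancels. Its mean was 1.99 in Ctrl and 1.89 in IR with library size alone as well.

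**Figure D2:**
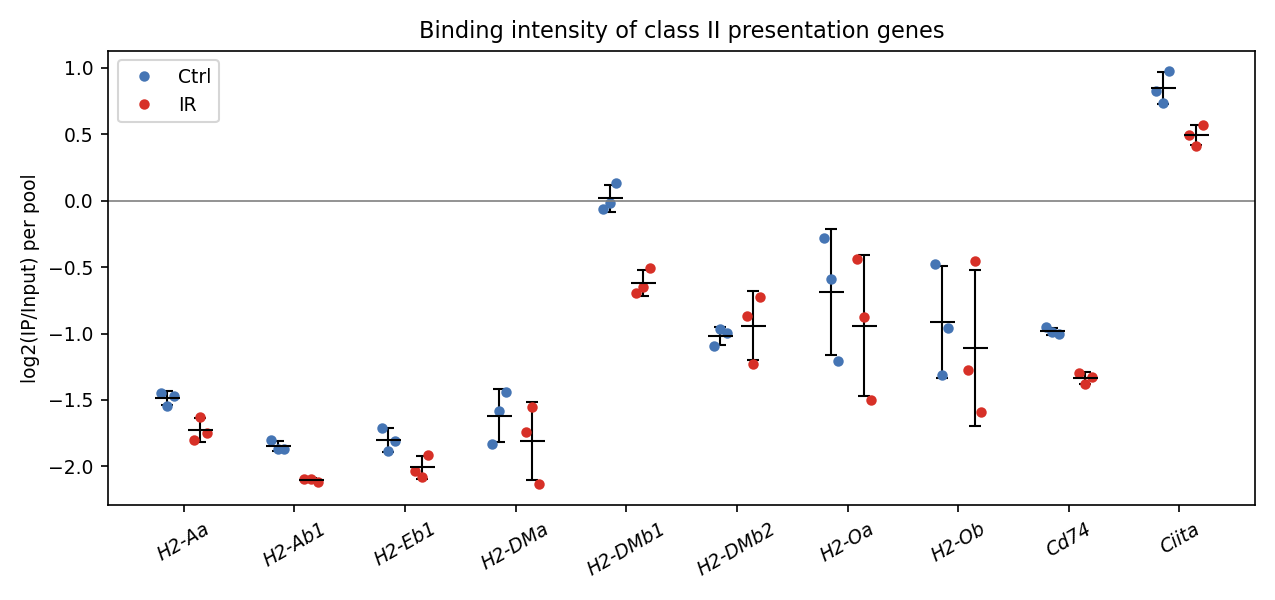
Binding intensity, log2(IP/Input), of each member in each pool of Ctrl and IR, with the mean and SD of 3 pools as bars. *Ciita* lies above 0 in all 6 pools, *H2-DMb1* lies around 0 in Ctrl and below 0 in IR, and the other structural genes lie below 0 in all pools.

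Whether IR changed binding intensity was tested as the interaction of fraction and condition over all 12 libraries. Log2(IP/Input) was lower after IR for 6 of the 10 members (*Ciita*, *Cd74*, *H2-Aa*, *H2-Ab1*, *H2-Eb1* and *H2-DMb1*) and higher for none, where 13.9% of 20720 genes tested were called lower and 6.28% higher. The direction rests on the scaling. With library size alone the median of all genes moved by 0.31 on the log2 scale, only *H2-DMb1* was still called, the sign of *H2-Aa*, *H2-Ab1*, *H2-Eb1*, *H2-DMa*, *H2-Oa* and *H2-Ob* turned positive, and the share of higher genes among all calls went from 31.1% to 76.5%. Changes are therefore also given relative to the median of all genes, which was -0.083 with TMM.

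*H2-DMb1* had the largest decrease of the members. Its log2(IP/Input) was -0.064, -0.020 and 0.13 in the Ctrl pools and -0.70, -0.65 and -0.51 in the IR pools, with no overlap. The change of -0.63 ± 0.10 SE (edgeR adjusted p = 8.45e-05) was -0.55 relative to the median of all genes with TMM and -0.55 with library size alone. *Ciita* had log2(IP/Input) of 0.83, 0.74 and 0.97 in Ctrl and 0.50, 0.41 and 0.57 in IR, again without overlap. Its change of -0.35 ± 0.084 SE (edgeR adjusted p = 0.00429) was -0.27 relative to the median. *Cd74* decreased by nearly the same amount, from -0.95, -0.99 and -1.01 to -1.29, -1.38 and -1.33 (log2 -0.35 ± 0.035 SE, edgeR adjusted p = 3.19e-07, -0.27 relative to the median). *Ciita* and *Cd74* lie on opposite sides of 0 in log2(IP/Input), but both changes were negative and differed by less than their standard errors.

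The classical chains had smaller decreases. *H2-Ab1* went from -1.80, -1.87 and -1.87 in the Ctrl pools to -2.09, -2.097 and -2.12 in the IR pools (log2 -0.26 ± 0.047 SE, edgeR adjusted p = 0.000452), and *H2-Aa* from -1.44, -1.54 and -1.47 to -1.80, -1.63 and -1.75 (log2 -0.24 ± 0.057 SE, edgeR adjusted p = 0.00426). Relative to the median of all genes their changes were -0.17 and -0.16. *H2-Eb1* passed the test narrowly (log2 -0.21 ± 0.071 SE, edgeR adjusted p = 0.0460) and did not with the replicate number as a block (edgeR adjusted p = 0.0611), nor when any replicate was left out. For *H2-DMa*, *H2-DMb2*, *H2-Oa* and *H2-Ob* the pools of Ctrl and IR overlapped, and their changes lay between -0.22 and 0.10 with edgeR adjusted p from 0.416 to 0.801.

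Transcript abundance was compared between IR and Ctrl in the Inputs. Class II expression was higher after IR for 8 of the 10 members and lower for none, where 21.0% of 16914 genes tested were called higher and 23.9% lower. The median log2 fold change of the 9 structural genes was 0.45, against 0.0072 over all genes tested. In bulk libraries more cells that express a gene and more RNA per cell cannot be told apart.

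The classical chains and the invariant chain rose together. *H2-Aa* went from 621, 615 and 629 CPM in the Ctrl pools to 952, 907 and 934 CPM in the IR pools, 1.42-fold higher (log2 0.50 ± 0.028 SE, edgeR adjusted p = 6.38e-14). *H2-Ab1* was 1.41-fold higher, *Cd74* 1.40-fold and *H2-Eb1* 1.37-fold (edgeR adjusted p = 1.49e-14, 1.33e-15 and 1.19e-12). Each IR pool of these 4 genes exceeded each Ctrl pool, and the ratio of *H2-Aa* to *H2-Ab1* counts stayed at 0.751 ± 0.0246 (SD, n = 3) in the IR Inputs. *H2-Oa*, the α chain of H2-O, rose by a similar factor from a low level, from 10.8, 11.3 and 13.2 CPM to 17.0, 16.0 and 18.4 CPM (log2 0.46 ± 0.10 SE, edgeR adjusted p = 0.000251). *Ciita* rose less, from 126, 130.3 and 131 CPM to 166, 162 and 164 CPM, or 1.20-fold (log2 0.27 ± 0.035 SE, edgeR adjusted p = 5.45e-07), and its pools did not overlap either. As a share of the counts of the 10 members, *Ciita* was therefore lower after IR, 2.04 ± 0.0427% (SD, n = 3) against 2.35 ± 0.0307%.

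The H2-DM genes and *H2-Ob* changed less in the Inputs. *H2-DMa* was 1.15-fold higher (log2 0.20 ± 0.040 SE, edgeR adjusted p = 0.000148). *H2-DMb1* passed the test narrowly at 1.08-fold (edgeR adjusted p = 0.0384) but not when any replicate was left out. *H2-DMb2* had a log2 fold change of -0.041 ± 0.053 SE and *H2-Ob*, the β chain of H2-O, of 0.11 ± 0.12 SE (edgeR adjusted p = 0.566 and 0.487), and their pools overlapped. Of the pairs that form a heterodimer, *H2-Aa* and *H2-Ab1* had nearly equal fold changes. *H2-Oa* passed the test and *H2-Ob* did not, which does not show that they differ, and their difference was not tested.

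Marker sums of other cell types did not all move with the condition, and those of B cells overlapped between Ctrl and IR. Among all genes tested in the Inputs, 21.0% were called higher and 23.9% lower after IR. The summed level of 10 dendritic cell genes was 1548 to 1604 CPM in the Inputs of Ctrl and 1916 to 1946 CPM after IR, and 6 of the 9 tested were called higher (*Ccl22* and *Fscn1* being the most abundant) and 2 lower, *Flt3* and *Zbtb46*, both used to define the lineage. The summed level of 6 B cell genes was 59.2 to 63.9 CPM in Ctrl and 63.1 to 67.4 CPM in IR, with 2 higher and 3 lower. Of 6 macrophage genes, 4 were higher and 2 lower, and their summed level was 206 to 208 CPM in Ctrl and 195 to 206 CPM in IR. The neutrophil sum, led by *S100a9* and *S100a8*, was 5749 to 6479 CPM in Ctrl and 8100 to 8843 CPM in IR, and the monocyte sum 496 to 518 CPM and 529 to 561 CPM. The part of these shifts in the higher class II level was not tested.

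**Figure D3:**
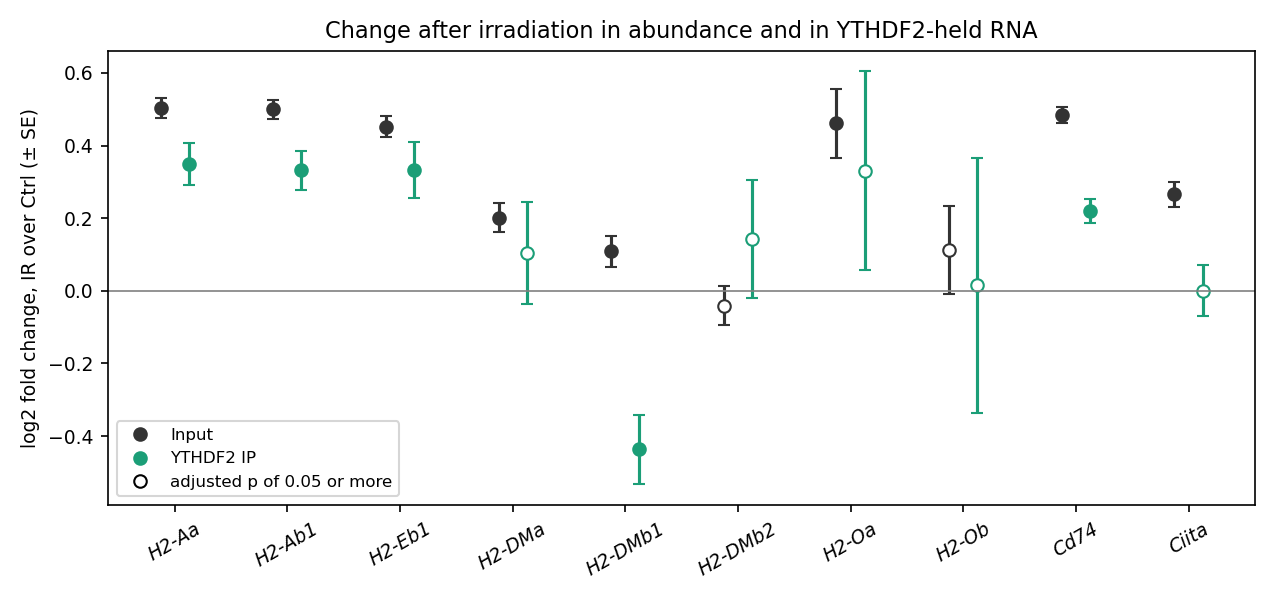
Log2 fold change of IR over Ctrl for each member in the Input and in the YTHDF2 IP, with the standard error of the edgeR fit. Open symbols have an adjusted p of 0.05 or more. The Input values of *H2-Aa*, *H2-Ab1*, *H2-Eb1* and *Cd74* lie between 0.45 and 0.50, and their IP values are lower but above 0, while *H2-DMb1* lies below 0 in the IP and *Ciita* at 0.

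In the IPs, which hold the RNA recovered with YTHDF2 before division by abundance, the same genes were compared between IR and Ctrl. Here 4 members were higher after IR, 1 was lower, and 6.12% of 19255 genes tested were called higher and 9.85% lower. *H2-Aa* rose from 228, 211 and 227 CPM to 273, 293 and 278 CPM, 1.27-fold (log2 0.35 ± 0.058 SE, edgeR adjusted p = 0.000488). *H2-Ab1*, *H2-Eb1* and *Cd74* were higher with log2 0.33 ± 0.054 SE, 0.33 ± 0.077 SE and 0.22 ± 0.033 SE (edgeR adjusted p = 0.000391, 0.00685 and 0.000179), and without replicate 3 the call of *H2-Eb1* was lost (edgeR adjusted p = 0.0531). The chains and the invariant chain were thus the members that rose in both fractions.

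*H2-DMb1* was the member that fell, from 69.3, 68.8 and 77.3 CPM in the Ctrl pools to 50.6, 50.3 and 57.1 CPM in the IR pools (log2 -0.44 ± 0.10 SE, edgeR adjusted p = 0.00466). Its call was lost without replicate 2 (edgeR adjusted p = 0.0516) and with library size alone, where the median of all genes moved by 0.21 on the log2 scale and the share of higher genes among all calls went from 38.3% to 76.3%. Relative to that median, *H2-DMb1* had -0.50 with TMM and -0.50 with library size. *Ciita* stood at 224, 217 and 257 CPM in the Ctrl pools and 234, 216 and 243 CPM after IR, overlapping ranges, and did not pass the test (edgeR adjusted p = 0.999), although it was called higher with library size alone (log2 0.21, edgeR adjusted p = 0.0407). Relative to the median of all genes it had -0.062 with TMM and -0.061 with library size. *H2-DMa*, *H2-DMb2*, *H2-Oa* and *H2-Ob* overlapped between conditions, with log2 fold changes from 0.015 to 0.33.

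Length and sequence of the transcripts, which the list did not use, are described beside log2(IP/Input). *Ciita* is the only long member, and the part of length in the members' values was not tested. In the transcript with the longest coding part, the 9 structural genes were 1088 to 1658 bases long and *Ciita* 4237 bases, against a median of 2926 bases over the tested coding genes. Among those genes, binding intensity differed between 5 length classes of about equal gene number. In the shortest class (93 to 1631 bases in Ctrl), the median IP to Input log2 change was -0.63, with 55.0% of 2611 genes lower and 20.3% higher. In the longest class it was 0.25, with 29.3% lower and 45.6% higher. After IR the medians were -0.78 and 0.53, so that the spread over length was wider.

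Of the members, 7 fell in the shortest class, *H2-DMa* and *H2-Ob* in the next, and *Ciita* in the fourth. Within their own class in Ctrl, *H2-Ab1* (-1.77) and *H2-Eb1* (-1.72) lay below the lower quartile of -1.44, *H2-Aa* (-1.41), *H2-DMb2* (-0.94) and *Cd74* (-0.91) between it and the median, and *H2-Oa* (-0.60) and *H2-DMb1* (0.093) above the median of -0.63. In the second class, *H2-DMa* (-1.54) lay below the lower quartile of -0.92 and *H2-Ob* (-0.80) between it and the median of -0.17. *Ciita* (0.92) lay above the upper quartile of 0.76 in the fourth class, whose median was -0.040, but in IR (0.55) it lay below the upper quartile of 0.75. The interaction also differed by length, with a median of -0.28 in the shortest class and 0.16 in the longest. The changes of *H2-Aa* (-0.24), *H2-Ab1* (-0.26) and *H2-Eb1* (-0.21) were close to the median of their class, in which 23.3% of genes were called lower. *Cd74* (-0.35) lay between that median and the lower quartile of -0.56, whereas *H2-DMb1* (-0.63) lay below this quartile. *Ciita* (-0.35) lay just below the lower quartile of -0.34 in the fourth class.

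GGACT, the core of the m6A consensus, was counted on the sense strand of the same transcripts. *Ciita* had 10 copies, a number reached by 5.56% of the tested coding genes, *H2-DMb1* 5, *H2-DMb2* and *H2-Oa* 3 each, and *H2-Aa*, *H2-Ab1*, *H2-Eb1*, *H2-DMa* and *H2-Ob* 2 each. *Cd74* had none. The median of the tested coding genes was 3 copies, or 1.06 per kilobase, and *H2-DMb1* had the highest density of the members with 3.56 per kilobase, against 2.36 for *Ciita*. These letters were not measured for methylation, and the part of their number in the members' values was not tested.

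**Figure D4:**
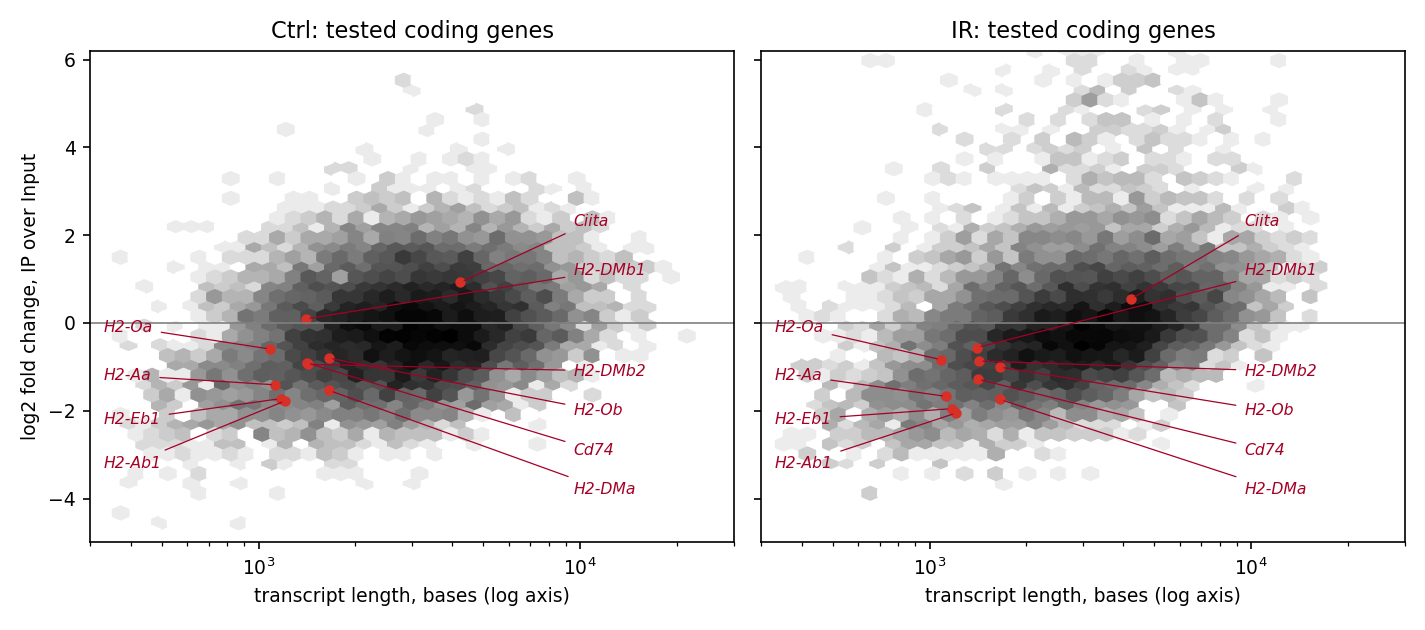
Log2 fold change of IP over Input against the length of the transcript with the longest coding part (log axis) for the tested coding genes in Ctrl and IR, with darker hexagons for more genes and the 10 members in red. Genes beyond the axes are not drawn. The structural genes gather at 1088 to 1658 bases, mostly below 0, and *Ciita* stands apart at 4237 bases above 0.

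The values of *H2-DMb1* and *H2-DMb2* are uncertain in how reads were split between them. Their transcripts were 94.4% identical over 1255 aligned bases and shared 27.2% of 50-base and 13.7% of 100-base windows, whereas none of the other related pairs compared (*H2-Aa* with *H2-Oa*, *H2-Ab1* with *H2-Eb1* and *H2-Ob*) shared a 50-base window. The count ratio of *H2-DMb1* to *H2-DMb2* was 1.63, 1.62 and 1.62 in the Inputs of Ctrl, 1.77, 1.85 and 1.79 in those of IR, 3.34, 3.12 and 3.55 in the IPs of Ctrl and 1.99, 2.78 and 2.09 in those of IR. It was thus higher in the IPs than in the Inputs, and after IR it was lower in the IPs and slightly higher in the Inputs, with no overlap between pools. With the counts of both genes summed, an alternative chosen after seeing the data, the pair was lower in the IP in Ctrl (log2 -0.22 ± 0.053 SE, edgeR adjusted p = 0.00144) and in IR (log2 -0.66 ± 0.079, edgeR adjusted p = 2.82e-05). The summed pair also kept a lower log2(IP/Input) after IR (-0.42 ± 0.097, edgeR adjusted p = 0.00342) and did not pass the test in the Inputs (edgeR adjusted p = 0.271). Overlapping genes on the opposite strand touch *H2-Oa* (22.8% of its exonic bases, with *BC051537*), *H2-DMa* (10.4%, with *Brd2*) and *Ciita* (3.45%, with *Dexi*), and the strand setting of the counting is not given in the sources used here.

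The other genes of the pathway, 34 symbols of which 31 were tested in every comparison, were followed by role. In the Ctrl IP 9 were higher and 20 lower than in the Input, where 34.1% of all genes tested were higher and 34.6% lower. In the IR IP 3 were higher and 20 lower, against 32.1% and 30.4% of all genes tested. The median log2 fold change of the list was -0.60 in Ctrl and -0.66 in IR, against 0.018 and 0.10 over all genes tested. After IR 20 were higher and 5 lower in the Inputs, against 21.0% and 23.9% of all genes tested. The interaction was lower for 15 and higher for none with TMM, where 13.9% of all genes tested were lower and 6.28% higher. With library size alone the direction over all genes turned, with 2862 genes higher and 877 lower. Genes with large decreases included *Lgmn* (-0.77), *Rfxap* (-0.51), *Cd86* (-0.50) and *Cd9* (-0.50). In the IPs, *Rfx5*, *Ctsd* and *Ctss* were higher after IR, and *Spi1* and *Rfxap* were among those lower.

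Transcription factors around *Ciita* were called in both directions, as were all genes tested in the Ctrl IP (34.1% higher and 34.6% lower). Of the 7 subunits of the complex on X and Y boxes, 3 were higher and 4 lower in the Ctrl IP. *Creb1*, which binds the X2 element, had the largest increase with log2 1.79 in Ctrl and 1.53 in IR (edgeR adjusted p = 1.46e-16 and 6.92e-10). The Y-box subunits *Nfyb* and *Nfya* were lower in Ctrl with -1.13 and -0.41 (edgeR adjusted p = 1.57e-09 and 7.59e-05). Of 8 genes of the interferon-γ route to *Ciita*, 3 were higher and 5 lower in the Ctrl IP. The kinases *Jak2* and *Jak1* were lower with -0.55 and -0.60 and the interferon factor *Irf1* with -0.71 (edgeR adjusted p = 6.27e-10, 8.33e-08 and 8.95e-07), while the myeloid factor *Spi1* was higher with 0.42 (edgeR adjusted p = 3.05e-08). In the Inputs, 5 of these 8 were higher after IR and 1 lower, where 21.0% of all genes tested were higher and 23.9% lower. *Irf1* was among the higher ones with log2 0.22 (edgeR adjusted p = 0.00164).

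The antigen processing genes were lower in the IP, while those of traffic and turnover were not of a single direction. Among all genes tested, 34.1% were higher and 34.6% lower in the Ctrl IP, and 32.1% higher and 30.4% lower in the IR IP. All 6 antigen processing genes were lower in the IP in both conditions, led by *Ctss*, which encodes the protease of the last invariant chain cleavage, with log2 -2.54 in Ctrl and -2.56 in IR (edgeR adjusted p = 2.50e-17 and 3.49e-11). *Ctsb* and *Ctsd*, further endosomal proteases, had -1.05 and -0.56 in Ctrl. In the Inputs 5 of the 6 rose after IR, *Ctsd* by log2 0.52 (edgeR adjusted p = 4.49e-14), where 21.0% of all genes tested were higher and 23.9% lower. *Ctsl* was lower by a call at the edge of the threshold (log2 -0.17, edgeR adjusted p = 0.04996). Of the 6 tested genes of traffic and turnover, 4 were lower in the IP in each condition, among them *Cd9* (-2.57 in Ctrl), *Rab7* (-1.89) and *Cd63* (-1.37). *Cd83*, whose product protects class II from ubiquitination, was the gene of that list enriched in the IP, with log2 1.54 in Ctrl and 1.11 in IR (edgeR adjusted p = 4.37e-15 and 6.89e-09). *March1*, which encodes a ubiquitin ligase of class II and was named after its values were seen, was not called, with -0.0084 in Ctrl and 0.13 in IR (edgeR adjusted p = 0.938 and 0.435). The costimulatory genes *Cd80*, *Cd86* and *Cd40* all rose in the Inputs after IR, by log2 0.54, 0.45 and 0.36 (edgeR adjusted p = 2.02e-11, 1.35e-10 and 0.000140).

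Across the 12 libraries, genes whose log2 CPM was among the most like the mean of *H2-Aa*, *H2-Ab1*, *H2-Eb1* and *Cd74* included *Lgals3*, *Rpl19*, *Npc2* and *Rpl14* among 11728 genes with at least 100 counts per library on average (Pearson's r from 0.998 to 0.999, a description with no test). The libraries form an Input and an IP cluster and share that split, so r mostly follows the difference between fractions. Of the other members, *H2-DMa* (r of 0.976) and *H2-DMb2* (0.942) followed this mean more closely than *H2-DMb1* (0.600), and *Ciita* ran against it (-0.81). The genes most like *Ciita* were *Gnaq*, *Maf*, *Gm44694*, *Sirt3* and *Gadd45g*, with r from 0.984 to 0.995.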

How the data were processed

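RIP-seq libraries of CD11b+ myeloid cells, 3 Input and 3 YTHDF2 IP per condition (Ctrl and IR), were grouped by their titles. Per the submitters' processing notes and the methods, the authors used Trimmomatic 0.39 for trimming and HISAT for alignment to mm10, and counted reads per GENCODE M19 gene with HTSeq. The deposited counts are whole numbers without normalization, and each file ends with 5 lines of uncounted reads, which were left out of library sizes. The strand option of the counting and removal of duplicates are not given in the sources used here.

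Symbols, exon lengths and transcripts came from GENCODE M21 (97.8% of identifiers matched with their version, 99.9% with or without it), promoters from RefSeq. A gene entered a comparison if 3 or more of its libraries held 10 or more counts, and was tested with edgeR 4.0.16 (TMM, glmQLFit, R 4.3.3), with Benjamini-Hochberg adjustment over all genes tested and a threshold of 0.05. The SE was derived from the fit as |log2 fold change|/√F. Levels are CPM with TMM factors of the 12 libraries, per-pool log2(IP/Input) used a prior count of 2, and both scales differ slightly from a fit within 1 condition. TMM takes most genes as unchanged.

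The members and lists were chosen with earlier results of these data known. The text names all members, in each list of pathway genes the 3 with the highest Input CPM and those with the largest change, in each marker list the 2 highest and those at 0, and the 5 genes most like the class II mean and *Ciita*. A few further genes were named after their values were seen because they were the exceptions of a small list. Some genes that the rule selects are not reported here.

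Input is a part of the lysate that was used for the IP of the same pool, so by the methods IP and Input of a condition are paired. The correlation of their deviations from the group means over genes was near 0 (mean 0.0030 in Ctrl and -0.0066 in IR), and the numbers pair nothing between Ctrl and IR. Replicates differed by more than counting noise in every group. The steps were tested on simulated counts. Alternatives were DESeq2 1.42.0 or its size factors, library size only, other filters, a joint fit of all 12 libraries, the replicate block, protein-coding nuclear genes only, another prior count and each replicate left out.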

Additional observations from a re-analysis of the deposited data

Results flagged for a closer look

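Log2(IP/Input) differed between IR and Ctrl, by the interaction test over the 12 libraries, for 6 members. All 6 were lower after IR, where 13.9% of 20720 genes tested were called lower and 6.28% higher. The change was -0.63 for *H2-DMb1*, -0.35 for *Ciita*, -0.35 for *Cd74*, -0.26 for *H2-Ab1*, -0.24 for *H2-Aa* and -0.21 for *H2-Eb1*, on the TMM scale. For *Ciita* and *Cd74* the values relative to the median of all genes were both -0.27. With library size alone only *H2-DMb1* was still called, and the values of *H2-Aa*, *H2-Ab1* and *H2-Eb1* were above 0. No gap between pools was examined, since groups of 3 are too small for it.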

How the results depend on the processing

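Of the counts of members called and the per-pool contrast, 118 values under alternatives were taken as kept and 4 were not. A count was kept within a set ratio of the main count, and the contrast within the SD of its pools. A kept count can therefore still differ, as with 7 in place of 8 members lower in the Ctrl IP without replicate 3. Of the values of single members, 490 kept their direction and side of the threshold, 29 lost the call, 1 gained it and 25 changed sign. With library size alone, 1 member was called lower in the interaction in place of 6, and 0 in place of 1 in the IP after IR. With protein-coding nuclear genes only, 2 members were higher in the Ctrl IP (*Ciita* and *H2-DMb1*, log2 0.19), and leaving out 1 replicate gave 0 to 1 members lower in the IP after IR. The sign changed for 6 interaction values with library size alone (*H2-Aa* 0.070, *H2-Ab1* 0.056, *H2-Eb1* 0.10, *H2-DMa* 0.13, *H2-Oa* 0.095 and *H2-Ob* 0.13), for *H2-DMb1* in the Ctrl IP (-0.091 with library size alone, -0.021 with no filter and -0.22 summed with *H2-DMb2*), and for *H2-DMb2* in the Inputs with all 12 libraries in one fit (0.037). In the IP after IR, values near 0 changed sign for *Ciita* (0.012 with DESeq2 or its size factors, 0.21 with library size, 0.052 with at least 10 counts in every library, 0.0018 with the replicate block, 0.027 with coding genes only) and for *H2-Ob* (-0.017 with no filter, -0.0050 with the replicate block). Between Ctrl and IR this block joins pools by number only, and the numbers pair nothing there, so its values say nothing about robustness. Leaving out 1 replicate gave interaction values from -0.29 to 0.083 for *H2-DMa* and -0.71 to 0.18 for *H2-Ob*, and values in the IP after IR from -0.015 to 0.33 for *H2-DMa*, -0.57 to 0.44 for *H2-Ob* and -0.013 to 0.054 for *Ciita*. The cause was not tested. With the replicate block, which pairs IP and Input, 5 in place of 6 members were lower in the interaction (*H2-Eb1*, -0.21, edgeR adjusted p = 0.0611), and no other count of members changed. Over all genes with library size alone, 2862 were higher and 877 lower in the interaction in place of 1301 and 2881, and 2665 higher and 828 lower in the IP after IR in place of 1179 and 1896. With all 12 libraries in one fit, 2621 genes were higher and 1500 lower in the Inputs after IR in place of 3557 and 4047, and 2125 higher and 2952 lower in the IPs. In the interaction and in the IP, leaving out 1 replicate gave 838 to 1012 and 564 to 748 genes higher and 1786 to 2046 and 1097 to 1348 lower. The fewest reads lay on *H2-Oa* and *H2-Ob*, which limits what their values can show.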
